A study of Mus musculus with 30 samples.

Results

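The 30 tumor libraries of this series were ranked by the mean log2 value of S100a8 and S100a9, and the 10 highest were set against the 10 lowest, whatever the treatment or genotype of the host. The ranking was meant to separate tumors rich in neutrophils from tumors poor in them. The genes that led the difference were epidermal, however, so the ends are called here S100-rich and S100-poor after the genes that ranked them. The 10 remaining libraries are called the middle libraries. S100a8 and S100a9 chose the members, so the difference between the ends is given as a description with no test.

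S100a8 and S100a9 encode the paired subunits of calprotectin, a calcium- and zinc-binding protein that fills the cytoplasm of neutrophils and is released during inflammation. Activated or wounded epidermis also makes calprotectin. Neutrophils are short-lived white blood cells that leave the bone marrow under the growth factor G-CSF, follow CXCR2 ligands into tissue, and carry stored granule proteins and an oxidase that kill microbes. In tumors they are studied both as helpers and as opponents of antitumor immunity.

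B16F10 mouse melanoma cells were injected under the skin of female C57BL/6 mice, and whole tumors were taken for bulk RNA sequencing. Hosts were either wild type (WT, labelled ARE-del +/+) or heterozygous for the ARE-del allele (HET, labelled ARE-del +/-). B16F10 is an established melanoma line, and the genotype labels are those of the host. From day 7 of growth the mice received 2 times a week a control rat IgG2A, an antibody to PD1 (anti-PD1, 0.25 mg), an agonist antibody to CD40 (anti-CD40, 0.25 mg) or both. The groups were WT IgG (5 libraries), WT anti-PD1 (4), WT anti-CD40 (3), WT combination (3), HET IgG (4), HET anti-PD1 (3), HET anti-CD40 (4) and HET combination (4). The labels do not say whether the libraries of a group came from separate mice, so p-values measure only the spread between these libraries. Libraries are named below by genotype, treatment and replicate number.

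The libraries held 17.6 M to 36 M reads (median 24.9 M), and a gene with no read had a deposited value of -3.64 on the log2 CPM scale (CPM is a read count scaled to the depth of its library). The median depth was 24.0 M reads in the S100-rich, 26.5 M in the middle and 24.3 M in the S100-poor libraries. The S100-rich libraries had fewer genes with no read (median 412.5 of 18975, against 718 in the middle and 811.5 in the S100-poor libraries) and a smaller share of mitochondrially encoded reads (median 1.33%, against 2.14% and 2.10%). Ifng, which encodes the cytokine named in the series title, had reads in 4 of 15 WT and 8 of 15 HET libraries, at most 31 in 1 library.

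The mean of S100a8 and S100a9 ran from 6.74 in WT anti-CD40 2 to -1.83 in WT anti-PD1 2. The last library inside the S100-rich end was WT IgG 1 at 2.63, and the first outside it was HET combination 3 at 2.38. At the other border, HET IgG 4 at -0.13 stayed among the middle libraries and WT combination 1 at -0.18 was the first S100-poor library. S100a8 itself had 5241 reads over the 10 S100-rich and 111 over the 10 S100-poor libraries, and S100a9 had 6345 and 111.

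Every treatment was present at both ends. Of 7 anti-CD40 libraries, 4 were S100-rich, 2 middle and 1 S100-poor. Of 7 anti-PD1 libraries, 1 was S100-rich, 2 middle and 4 S100-poor. The 7 combination libraries fell 2, 3 and 2, and the 9 IgG libraries 3, 3 and 3. By genotype, 6 of 15 WT and 4 of 15 HET libraries were S100-rich, and 4 WT and 6 HET libraries were S100-poor. Within genotypes the IgG libraries differed: 3 of 5 WT IgG libraries were S100-rich and 0 of 4 HET IgG libraries were. All 3 HET anti-PD1 libraries were S100-poor, and both combination libraries at the S100-rich end were from HET hosts while both at the S100-poor end were from WT hosts. These counts describe 3 to 5 libraries a group and were not tested.

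**Figure D1:**
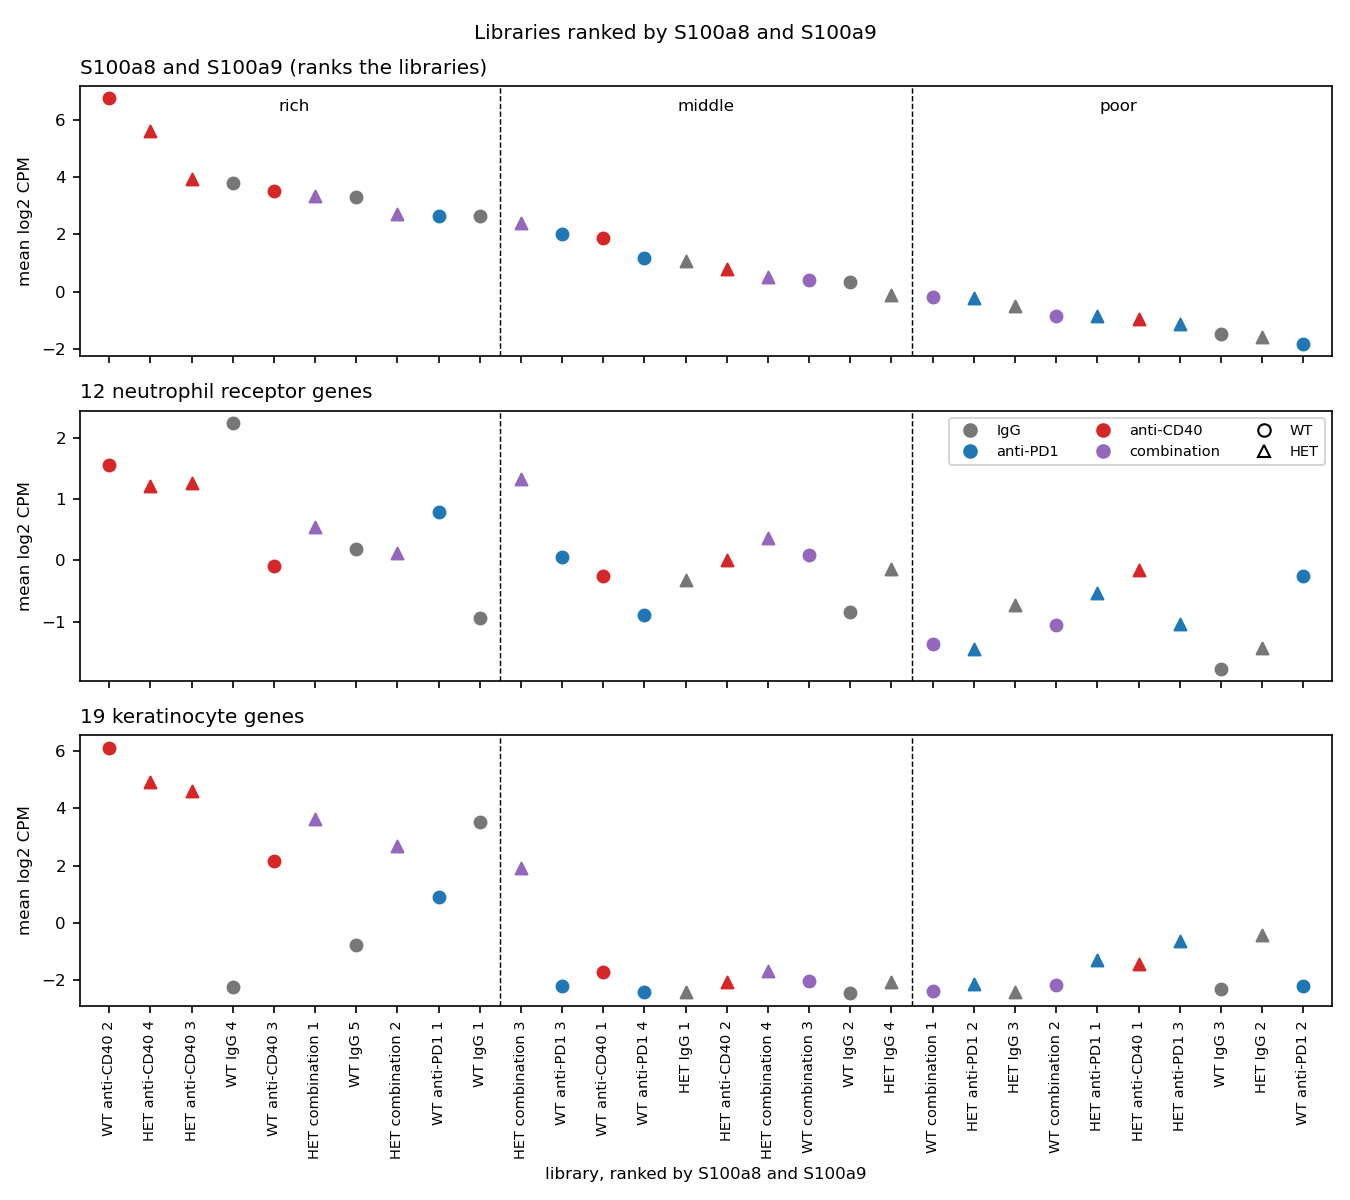
Mean log2 CPM of S100a8 and S100a9 (top), of 12 neutrophil receptor genes (middle) and of 19 keratinocyte genes (bottom) in each of the 30 libraries, ordered by the top panel; color gives the treatment, shape the genotype, and dashed lines the borders between S100-rich, middle and S100-poor libraries. The receptors are highest in WT IgG 4 (2.25) and the keratinocyte genes in WT anti-CD40 2 (6.12), while WT IgG 4 has a keratinocyte mean of -2.25.

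The library descriptions start with L5, L6, L7 or L8, a code that the labels do not explain. Of 8 L7 libraries, 6 were S100-poor, and of 6 L8 libraries, 0 were. L5 held only WT libraries, L7 and L8 only HET libraries, and L6 all WT libraries but 1, so the code and the genotype cannot be told apart. The code also follows treatment: all WT IgG libraries were L5, all WT anti-CD40 and WT combination L6, all HET anti-PD1 L7 and all HET combination L8. Within L5 (4 S100-rich against 2 S100-poor libraries) the neutrophil receptors differed by a median of 1.57 and within L6 (2 WT anti-CD40 against 2 WT combination) by 1.67, beside 1.52 over all 20 libraries. The keratinocyte list differed by 2.25 within L5 and 5.70 within L6, beside 4.01.

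Genes listed as surface receptors of neutrophils were higher in the S100-rich libraries. All 12 receptor genes that passed the filter on low values, of 20 listed, had a higher mean there, 10 of them by at least 1 on the log2 scale, and the median difference was 1.52 (0.68 with a pseudocount of 1 CPM). Of all 15000 genes compared, 49.9% were higher in the S100-rich libraries by any amount, 5.31% were higher and 1.59% lower by at least 1, and the median difference was -0.00. The 2 ends were chosen by S100a8 and S100a9, so nothing is read from these shares. Averaged over the 12 genes, the receptor level ran from -0.94 through a median of 0.67 to 2.25 in the S100-rich libraries and from -1.77 through -1.05 to -0.15 in the S100-poor ones. In 9 of 10 S100-rich libraries it lay above every S100-poor library; the exception was WT IgG 1. Over 30 libraries the receptor mean had a correlation of 0.82 with the mean of the monocyte and macrophage list. With the mean of the inflammatory myeloid list it had one of 0.92. The part of other myeloid cells in the receptor level was not tested. In bulk tissue, fewer cells of a type and less RNA per cell cannot be told apart.

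Il1r2, the decoy receptor that binds interleukin-1 without signaling (chromosome 1, 40074079 to 40125231, mm10), was the only receptor gene whose ends did not overlap. Its values ran from -1.16 through a median of 0.92 to 2.68 in the S100-rich libraries and from -3.64 through -2.18 to -1.48 in the S100-poor ones. That is a difference of 3.07 ± 0.49 (SE, n = 10 and 10), from 530 and 32 reads. Its highest library was WT IgG 4, which was not the library highest in S100a8 and S100a9.

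Ltb4r1, the receptor for the attractant leukotriene B4, ran from -2.07 through 0.19 to 2.09 and from -3.64 through -3.24 to -1.25. The difference was 3.21 ± 0.49, and 9 of 10 S100-rich libraries lay above every S100-poor one. Cxcr2, the chemokine receptor that draws neutrophils into tissue, ran from -1.76 through -1.16 to 2.56 and from -3.64 through -2.93 to -1.19. Its difference was 2.33 ± 0.51, on 253 and 16 reads, and 6 of 10 S100-rich libraries lay above every S100-poor one. Csf3r, the receptor for G-CSF, overlapped more: it ran from -0.47 through 1.23 to 4.39 and from -1.19 through -0.10 to 1.57, a difference of 1.34 ± 0.51. The middle libraries had the same Csf3r median as the S100-rich ones, 1.23.

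Among the other receptors, Clec4d, a lectin that senses microbial lipids, differed by 1.94 ± 0.42, and Clec4e, its partner lectin Mincle, by 1.27 ± 0.47. Trem1, which amplifies inflammatory signals, differed by 1.65 ± 0.36. Pirb, an inhibitory receptor of myeloid cells, differed by 1.39 ± 0.53 and Cd300ld by 1.05 ± 0.45. Tnfrsf23 (0.64 ± 0.31) and Siglece (0.41 ± 0.51), an inhibitory receptor for sialic acids, were the 2 under 1. Fpr1, Fpr2 and Trem3 did not pass the filter and had 72, 188 and 36 reads over the S100-rich and 17, 34 and 15 over the S100-poor libraries. The other listed receptors, Ly6g, Cd177, Cxcr1, Mrgpra2a and Mrgpra2b, were not analysed here.

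**Figure D2:**
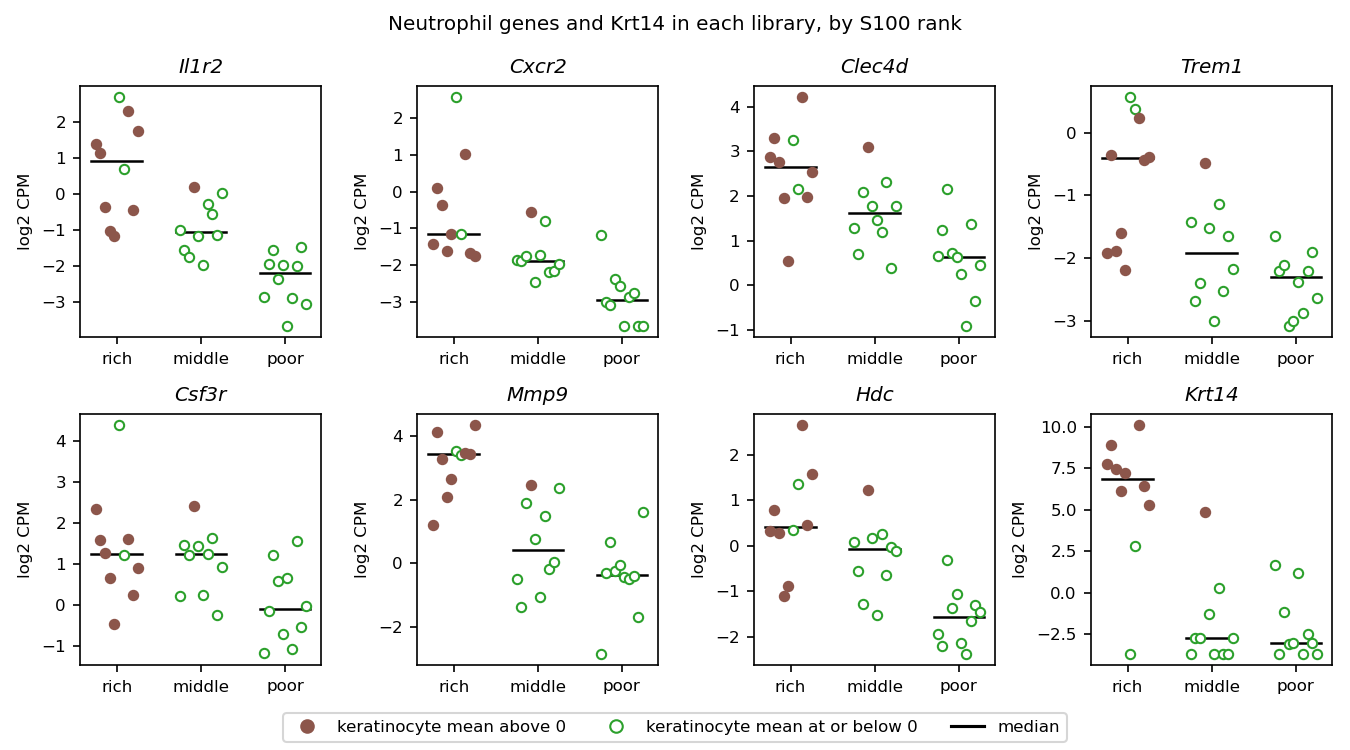
log2 CPM of 7 neutrophil genes and the keratin gene Krt14 in each library, by S100 rank (10 libraries a column); filled brown points are libraries with a keratinocyte mean above 0, open green points the others, and black lines are medians. The columns do not overlap for Il1r2 (S100-rich lowest -1.16, S100-poor highest -1.48) and overlap for Csf3r; 1 open point, WT IgG 4, is the highest for Il1r2, Cxcr2, Trem1 and Csf3r.

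Granule and secreted proteins of neutrophils were higher in the S100-rich libraries too: 9 of 9 that passed, of 17 listed, 8 of them by at least 1, with a median difference of 1.96. Mmp9, a gelatin-cutting protease of tertiary granules that epidermis and macrophages also make, ran from 1.19 through 3.43 to 4.35 in the S100-rich and from -2.84 through -0.35 to 1.62 in the S100-poor libraries, a difference of 3.57 ± 0.48. Slpi, an inhibitor of neutrophil elastase that epithelia also secrete, was the only one whose ends did not overlap (lowest S100-rich value 0.62, highest S100-poor value 0.46; difference 2.19 ± 0.35). Hdc, which makes histamine, differed by 2.17 ± 0.40, with 8 of 10 S100-rich libraries above every S100-poor one. Chil3 (Ym1) differed by 2.01 ± 0.66, Lcn2, which withholds iron from bacteria, by 1.96 ± 0.53, and Wfdc21 by 1.71 ± 0.54, while in the libraries low in keratinocyte genes Lcn2 and Wfdc21 differed by -0.01 and -0.02. Padi4, which modifies histones during the release of neutrophil DNA, differed by 1.52 ± 0.36, the collagenase Mmp8 by 1.02 ± 0.57 and Pglyrp1, which binds bacterial cell walls, by 0.98 ± 0.38.

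Granule genes made early in neutrophil development gave little to compare. Prtn3 did not pass the filter, with 101 and 53 reads, and Ltf, the lactoferrin gene, had 16 and 12. Elane, Mpo, Ctsg, Camp and Ngp were not analysed here. Of the phagocyte oxidase genes, Ncf4 (1.53 ± 0.41), Ncf1 (1.43 ± 0.42), Cyba (0.71 ± 0.29) and Cybb (0.61 ± 0.47) were higher in the S100-rich libraries. Macrophages use the same oxidase.

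The largest differences were in epidermal genes. Krt14, the keratin of basal keratinocytes, ran from -3.64 through 6.85 to 10.11 in the S100-rich and from -3.64 through -3.0 to 1.70 in the S100-poor libraries, with 59014 and 130 reads. Krt6a and Krt17, keratins of wounded or activated epidermis, had 23382 and 21052 reads over the S100-rich and 40 and 61 over the S100-poor libraries. All 19 keratinocyte genes that passed, of 20 listed, were higher by at least 1, with a median difference of 4.01, and all 8 wound epidermis genes, of 12 listed, with a median of 6.52. A gene could pass the filter through the S100-rich libraries alone, as Sprr2h did (highest middle value -1.47). Nothing is therefore read from these counts of members. Flg and Sprr2d had no read in any S100-poor library; with these at the lowest fold that 3 reads over the S100-poor libraries allow, the medians were 4.14 and 7.04. Among the libraries low in keratinocyte genes (the 21 with a keratinocyte mean at or below 0) the 2 medians were -0.44 and 0.19.

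The keratinocyte mean was above 0 in 9 of 30 libraries: 8 of the 10 S100-rich, 1 middle (HET combination 3, 1.91) and 0 of the 10 S100-poor. The 2 S100-rich libraries below 0 were WT IgG 4 (-2.25) and WT IgG 5 (-0.76). WT IgG 4 had the highest receptor mean of all 30 libraries, 2.25, and no read of Krt14. WT IgG 1 had a keratinocyte mean of 3.54 and a receptor mean of -0.94, lower than 4 of the S100-poor libraries. Over 30 libraries the S100 mean had a Pearson correlation of 0.76 with the receptor mean and 0.76 with the keratinocyte mean, and the receptor and keratinocyte means had one of 0.52; Spearman's rho was 0.76, 0.53 and 0.51. Without WT anti-CD40 2 and HET anti-CD40 4, farthest from the median, these were 0.70, 0.63 and 0.37. Over the 21 libraries with a keratinocyte mean at or below 0, they were 0.70, -0.11 and -0.05. Within the 10 middle libraries the receptor and keratinocyte means had a Pearson correlation of 0.85 (rho 0.83), and within the S100-rich ones -0.09 (rho 0.18). The S100 and receptor means had 0.58 (rho 0.72) within the S100-rich, 0.43 (0.20) within the middle and -0.16 (-0.16) within the S100-poor libraries. For the S100 and keratinocyte means these were 0.54 (0.53), 0.57 (0.28) and -0.37 (-0.41). The points share library depth and tissue makeup, and the correlations are descriptions.

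**Figure D3:**
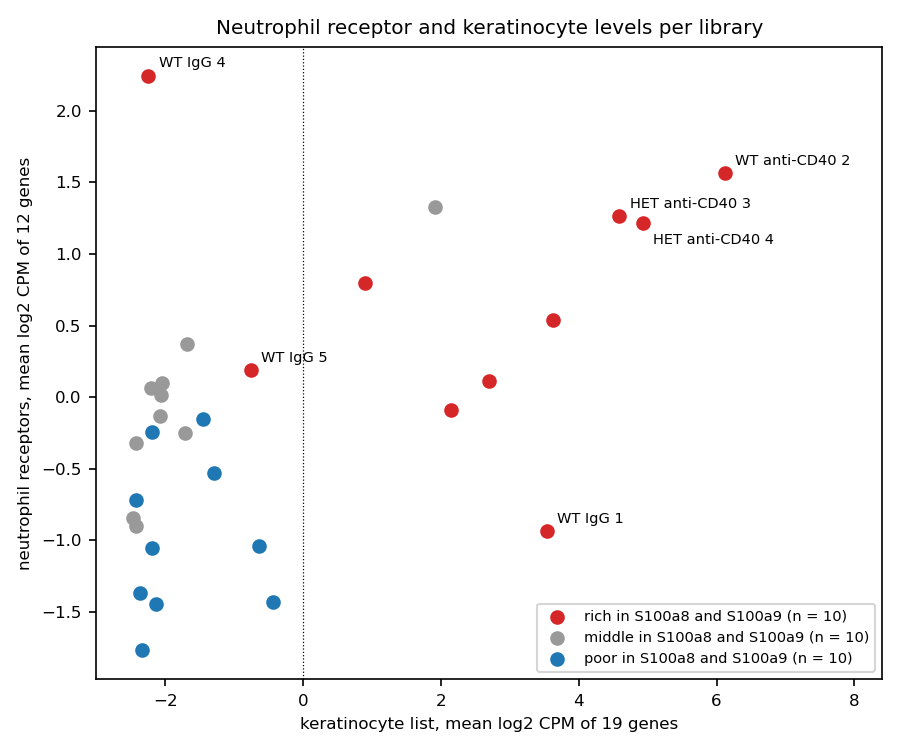
Mean log2 CPM of 12 neutrophil receptor genes (y axis) against that of 19 keratinocyte genes (x axis) in 30 libraries, colored by S100 rank, with the dotted line at a keratinocyte mean of 0. WT IgG 4 is high on the y axis (2.25) and low on the x axis (-2.25), WT IgG 1 the reverse (-0.94 and 3.54), and all 10 S100-poor points are left of the line.

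In 20 genes every S100-rich library was above every S100-poor library with a difference of means of at least 1 (0.133% of 15000), and in 1 gene every S100-rich library was below (0.00667%). Without WT IgG 4 the 2 counts were 81 and 4, and without WT IgG 5 they were 38 and 7. The count lower was 5 without HET IgG 2, 3 without HET combination 2 and 2 without WT anti-PD1 1 or HET anti-PD1 2. Dmkn (dermokine, a secreted protein of the upper epidermis) differed by 6.12 ± 0.83, and by -0.06 among the libraries low in keratinocyte genes. Lamb3, a laminin chain of the basement membrane, differed by 3.94 ± 0.43, and Col7a1, a collagen that anchors that membrane, by 1.64 ± 0.35. Sprr2h, a cornified envelope gene, had 742 reads over the S100-rich and 2 over the S100-poor libraries, a ratio of 339 (95% exact interval 93.4 to 2801, counting error only). Klk9, a kallikrein protease of skin, had 474 and 0, at least 144-fold higher. Slc25a48, a mitochondrial carrier, had 307 and 1 (ratio 280, 49.9 to 11102). 2610528A11Rik differed by 4.43 ± 0.69 and Mpzl3 by 2.78 ± 0.42, and Ankrd22 had 159 and 2 reads. Lamb3, Sprr2h, Klk9, Slc25a48, 2610528A11Rik, Mpzl3 and Ankrd22 had no value above 0 outside the S100-rich libraries. They passed the filter through that end alone, as did Areg, Crabp1 and Il1f9, named below. Across 30 libraries each of Dmkn, 2610528A11Rik, Slc25a48 and Klk9 had a correlation of 0.96 or 0.97 with the keratinocyte mean. Dmkn is itself in the keratinocyte list, so its correlation is partly with itself.

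Among the other genes of the 20, Mmp3 (stromelysin, a matrix protease) differed by 3.67 ± 0.54, running from 2.99 through 4.17 to 6.07 and from -1.95 through 0.85 to 2.17. Ptges, which makes prostaglandin E2, differed by 2.90 ± 0.48, Areg, an EGF receptor ligand of wound repair, by 2.79 ± 0.32, and Saa3, an acute-phase protein, by 2.70 ± 0.44. Cd24a, a surface protein of neutrophils, B cells and epithelium, differed by 2.93 ± 0.49 and ran from 0.19 through 1.68 to 4.30 and from -2.53 through -0.85 to 0.15. Crabp1, which binds retinoic acid, differed by 3.14 ± 0.50 and S100a4, another calcium-binding protein of the same family, by 1.51 ± 0.24. The correlations of Saa3 (0.50), Il1r2 (0.52), Cd24a (0.67), Mmp3 (0.68) and Slpi (0.68) with the keratinocyte mean were the lowest of the 20. Inpp4b, a phosphatase of the PI3-kinase pathway, was the 1 gene lower: 2.45 through 4.18 to 4.78 against 4.87 through 5.26 to 5.62, a difference of -1.43 ± 0.32. Its correlation with the keratinocyte mean was -0.89.

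The gene most like the S100 mean over 30 libraries was Il1f9 (interleukin-36 gamma, an alarm cytokine of epidermis), with a Pearson correlation of 0.92, which was 0.82 over the 21 libraries low in keratinocyte genes. Ankrd22 followed with 0.89 (0.69), Crabp1 with 0.88 (0.65), Ltb4r1 with 0.86 (0.65), Il1r2 with 0.86 (0.88) and Chil1 with 0.86 (0.59). Ccl4, a chemokine of activated leukocytes, and the ribosomal pseudogene Rps6-ps3, whose reads cannot be told apart with certainty from those of Rps6, had 0.85 each. Il1r2 was the only one of these whose correlation was not smaller over the 21 libraries.

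The stefin A genes are a tandem cluster of cysteine protease inhibitors on chromosome 16, made by both neutrophils and epidermis. They were also higher in the S100-rich libraries. Over 30 libraries their mean had a correlation of 0.98 with the keratinocyte mean and 0.52 with the receptor mean. In WT IgG 4, the library with the highest receptor mean, it was -3.64, the value of no read. BC100530 had 7828 reads over the S100-rich and 5 over the S100-poor libraries, Stfa3 2673 and 6, Stfa1 2549 and 3, and Csta1 1739 and 2. The median difference of the 5 that passed was 5.19, and it was 0.24 in the libraries low in keratinocyte genes. These near-identical copies can exchange reads in counting, so the single values are uncertain. Stfa2l1 and Gm5483, which did not pass the filter, had 88 and 77 reads over the S100-rich and 1 each over the S100-poor libraries.

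Because 8 of the 10 S100-rich libraries were high in keratinocyte genes, the comparison was repeated, after seeing the data, among the 21 libraries with a keratinocyte mean at or below 0, taking the 7 highest and the 7 lowest in S100a8 and S100a9. The 7 highest were 2 WT IgG, 2 WT anti-PD1, 1 WT anti-CD40, 1 HET IgG and 1 HET anti-CD40 libraries, and 2 of them, WT IgG 4 and WT IgG 5, were S100-rich over all libraries. The 7 lowest were 1 WT IgG, 1 WT anti-PD1, 1 WT combination, 1 HET IgG, 2 HET anti-PD1 and 1 HET anti-CD40 libraries. Genotype, treatment and the L code were thus not balanced between these ends. Here 11 of 12 neutrophil receptors were higher, with a median of 1.16 (0.80 without WT IgG 4 and 1.35 without WT anti-PD1 4), and 7 of 9 granule genes, with a median of 0.78; of all genes 47.3% were higher. Il1r2 differed by 2.43, from -1.74 to 2.68 against -3.64 to -1.53, with 6 of the 7 higher libraries above the whole lower end. Cxcr2 differed by 1.75, Mmp9 by 1.69, Hdc by 1.63, Chil3 by 1.53, Mmp8 by 1.36, Clec4e by 1.34, Trem1 by 1.25 and Csf3r by 1.14. Lcn2 (-0.01), Wfdc21 (-0.02) and Siglece (-0.51) were not higher. Retnlg, a resistin-like gene of neutrophils that did not pass the filter, differed by 2.49 and had a correlation of 0.89 with the S100 mean over the 21 libraries. Of the 15000 genes, B230216N24Rik was the 1 gene wholly higher (0.00667%) and Orm1 the 1 wholly lower (0.00667%); both are named after their values were seen.

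CXCR2 ligands were higher both over all libraries and among those low in keratinocyte genes. Cxcl2 ran from -1.32 through 1.24 to 5.44 in the S100-rich and from -3.64 through -1.52 to 0.25 in the S100-poor libraries, a difference of 2.90 ± 0.90, and of 3.72 among the libraries low in keratinocyte genes. Its values within the S100-rich end were split: 5 of the 6 WT libraries were at 2.53 or more, WT IgG 1 was at -1.32, and all 4 HET libraries were at -0.06 or less. Cxcl3 differed by 2.70 ± 0.74 (3.14), Cxcl5 by 1.92 ± 0.48 (1.34), Cxcl1 by 1.44 ± 0.50 (1.84) and Ppbp, which platelets also store, by 0.83 ± 0.83 (2.47), the second value being that of the libraries low in keratinocyte genes. Il6 differed by 1.53 ± 0.46 (1.06). The attractant list as a whole had a median of 1.73 over all libraries and 2.16 among those low in keratinocyte genes, where it was 1.80 without WT IgG 4 and 2.44 without HET anti-CD40 2.

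Inflammatory genes of myeloid cells were higher in both settings: 16 of 17 were higher over all libraries (median 1.60) and 17 of 17 among those low in keratinocyte genes (median 1.00). Il1b, the cytokine that Il1r2 binds, differed by 2.55 ± 0.48, with 9 of 10 S100-rich libraries above every S100-poor one, and by 2.21 among the libraries low in keratinocyte genes. Ptgs2, which makes prostaglandins, differed by 2.53 ± 0.47 (1.77), Ccl4 by 2.08 ± 0.43 (1.28), Acod1, which makes itaconate, by 1.88 ± 0.48 (1.64), Ccl3 by 1.76 ± 0.54 (1.46), Arg1 by 1.68 ± 0.65 (1.44) and the receptor antagonist Il1rn by 1.55 ± 0.43 (1.00). Nfkbiz did not differ by more than its error (-0.04 ± 0.32, and 0.47).

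Lists of other leukocytes were higher over all libraries, with medians near or below 0 among those low in keratinocyte genes. All 20 monocyte and macrophage genes were higher, with a median of 1.27, against -0.07 among the libraries low in keratinocyte genes. Lyz2, the lysozyme of macrophages and neutrophils, differed by 1.35 ± 0.49 (0.24), the complement gene C1qa by 1.30 ± 0.56 (-0.76) and Ly6c2, a marker of inflammatory monocytes, by 2.0 ± 0.60 (0.14). The T and NK cell list had medians of 1.23 and -0.33, with Nkg7, a cytotoxic granule protein, at 1.51 ± 0.65 (-0.28). The mast cell, basophil and eosinophil list had medians of 2.38 and -0.56, with the mast cell protease Mcpt4 at 2.79 ± 0.73 (-0.77). The B cell list had medians of 0.91 and 0.04 and the dendritic cell list 0.80 and 0.01. The genes induced by interferon gamma had medians of 0.77 and -0.76, with Psmb8, an immunoproteasome subunit, at 1.27 ± 0.61 (-1.04).

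Genes of the tissue around the tumor and of the tumor itself fell on both sides. The skeletal muscle list had medians of 1.65 and -1.77 and the adipocyte list 1.30 and -0.43 in the same order, and 1 and 2 of 10 S100-rich libraries lay above every S100-poor one. Fibroblast and matrix genes had medians of 1.05 and 0.07. Endothelial genes (0.09), proliferation genes (0.10) and type I interferon genes (-0.02) hardly differed. Melanocyte genes, the pigment lineage of the melanoma cells, were lower in 10 of 12 members, with a median of -0.26 (-0.05 among the libraries low in keratinocyte genes); Dct differed by -0.25 ± 0.12. Mitochondrially encoded genes were lower in 12 of 13 members (medians -0.71 and -0.05 in that order), and the 86 cytoplasmic ribosomal protein genes, a list added after the data were seen, were all higher (median 0.48), against 56 of 86 among the libraries low in keratinocyte genes (median 0.04).

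Red blood cell genes hardly separated the 10 and 10 libraries and did separate the 7 and 7. Over all libraries Hbb-bs, an adult beta globin, ran from 4.05 through 5.95 to 12.06 and from 4.04 through 5.59 to 8.20, a difference of 0.67 ± 0.92. Among the libraries low in keratinocyte genes it differed by 3.63, and the list by 3.55 (3.06 without WT IgG 4, 4.02 without HET anti-CD40 2). With 5 against 5 libraries within HET hosts the list was lower (-1.32), as it was with the libraries ranked by the neutrophil receptors (-0.43), and within WT hosts it was higher (2.13). The part of blood in the neutrophil genes was not tested.

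**Figure D4:**
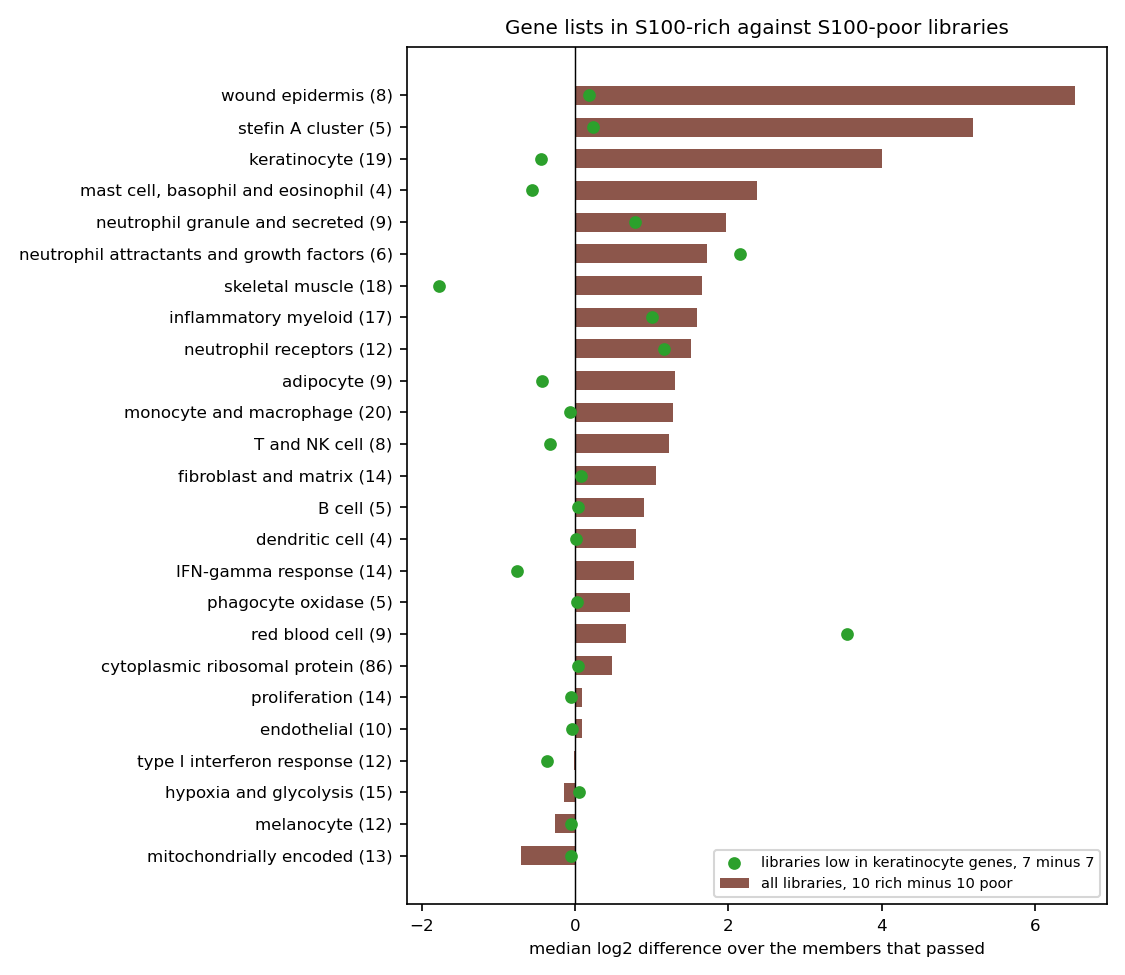
Median log2 difference over the members of each gene list that passed the filter (number in parentheses), as bars for 10 S100-rich minus 10 S100-poor libraries and as green points for 7 minus 7 of the libraries low in keratinocyte genes. The neutrophil receptors are at 1.52 and 1.16 and the attractants at 1.73 and 2.16, while the keratinocyte list is at 4.01 and -0.44.

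Gene length moved with the S100 rank. With 14921 genes in 5 groups of like size by exon length, the shortest (up to 1963 bases) had a median difference of 0.28, with 78.3% higher in the S100-rich libraries, and the longest (7232 bases and more) had -0.31, with 18.4% higher. Among the libraries low in keratinocyte genes the same groups had -0.03 and 0.03. The part of length in the gene differences was not tested.

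Ranking the libraries by the mean of the 12 receptor genes in place of S100a8 and S100a9 kept 8 of the 10 libraries at the high end and 7 of the 10 at the low end. In 33 genes the ends were then apart by at least 1, and Saa3 was the 1 gene shared with the 20 above. Csf3r and Clec4d were used for that ranking. Among the other 31 were genes of leukocyte signaling: Csf2rb, the shared receptor chain for GM-CSF (difference 1.81), Ccr1, a chemokine receptor (2.06), Fgr, a Src-family kinase (2.61), Srgn, the proteoglycan of granules (2.02), Tnfrsf1b, a TNF receptor (1.90), and Cyp4f18, which inactivates leukotriene B4 (2.81). Il1b (2.55), Acod1 (2.23), Ncf4 (2.05) and Cd86 (2.40) were also apart. The largest differences of the 33 were in Saa3 (3.56), Slc13a3 (3.43), Sfrp2 (3.42), Cd55 (3.16), Slfn1 (3.04) and Ly6c2 (3.02). The keratinocyte list still differed by 3.27 under this ranking. These genes are a description, since the same libraries ranked them.

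Groups by the labels were tested without the ranking, in 10 comparisons, 6 of a treatment with the IgG group of its genotype and 4 of HET with WT hosts given the same antibody. Comparisons within a genotype share its IgG libraries. With limma on the 8 group means and Benjamini-Hochberg adjustment, 0 of 15000 genes (0%) passed an adjusted p of 0.05 in any of the 10, and 62 to 2228 had an unadjusted p under 0.05; voom on the reads gave 0 in each too. Of the 21 neutrophil receptor and granule genes, 0 were therefore called in any comparison. The unadjusted counts moved with single libraries: 777 for anti-CD40 in WT hosts was 75 without WT anti-CD40 2 and 3211 without WT anti-CD40 1. In HET hosts 2228 for anti-CD40 was 955 without HET anti-CD40 4 and 3442 without HET anti-CD40 2, and 1471 for the combination was 787 without HET combination 3 and 2292 without HET IgG 4. With the L number as a covariate these 3 counts were 509, 2497 and 161. The count for HET against WT under the combination was 79 in place of 834. WT IgG and WT anti-CD40 share no L number, nor do the WT and HET combination groups, and HET IgG shares only L8 with HET combination. The fit therefore leans on other groups and cannot tell the code from the treatment or genotype.

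The 21 neutrophil genes were all on 1 side in several comparisons. They move together across libraries (receptor and granule means had a correlation of 0.93 over 30 libraries), so the members are not independent. In HET hosts, all 21 were higher with anti-CD40 than with IgG (median 1.5; 8 with an unadjusted p under 0.05, against 14.9% of all genes; lowest adjusted p 0.21) and all 21 with the combination (median 1.36; 9, against 9.81%; lowest adjusted p 0.25). In WT hosts, 21 were higher with anti-CD40 (median 0.55; 1, against 5.18%; 0.62), 14 with anti-PD1 (median 0.10; 0, against 2.75%; 1.00) and 3 with the combination (median -0.56; 1, against 0.413%; 1.00). Between genotypes, all 21 were higher in HET than WT under the combination (median 1.35; 5, against 5.56%; 0.66), and 3 were under IgG (median -0.67; 3, against 2.07%; 1.00). Under anti-PD1, 2 were higher in HET (median -1.02), under anti-CD40 13 (median 0.15; 2, against 3.83%), and with anti-PD1 against IgG in HET hosts 8 (median -0.29). The median of all genes lay between -0.02 and 0.02 in each of the 10, and 44.8% to 54.0% of all genes were higher. The difference between the WT and HET responses was not tested.

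Mmp9 had the values 0.67, 1.91, 1.19 and 4.13 in the HET anti-CD40 libraries, 3.28, 2.09, 2.48 and 0.77 in the HET combination libraries and -0.51, -2.84, -0.31 and -1.39 in the HET IgG libraries. Every treated library was above every IgG library. The difference from IgG was 3.24 ± 1.09 with anti-CD40 (limma, adjusted p = 0.23) and 3.42 ± 1.09 with the combination (adjusted p = 0.32). Lcn2 had 0.59, 0.14, 1.72 and 4.13 with the combination and -2.04, -0.70, -2.55 and -3.09 with IgG, again without overlap, a difference of 3.74 ± 0.97 (adjusted p = 0.25). Ltb4r1 had -1.25, -1.57, 0.85 and 1.79 with anti-CD40 and -3.15, -2.84, -3.64 and -2.37 with IgG, 3 or fewer reads in each IgG library, a difference of 2.96 ± 0.95 (adjusted p = 0.21). Cxcr2 did not separate these groups: -3.09, -1.74, -1.42 and 0.09 against -1.85, -1.19, -3.0 and -1.90. The keratinocyte mean was at a median of -2.25 with IgG, 1.57 with anti-CD40 and 2.30 with the combination in these hosts, and its part in these differences was not tested.

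Leaving out 1 library brought in 7 genes, 0 of them neutrophil genes. Without HET IgG 4, Mndal (adjusted p = 0.038) passed for anti-CD40 against IgG in HET hosts, and for the combination Mndal, Casp1, Ifi203, C130026I21Rik, BC023105 and Apol9b did (adjusted p 0.011 to 0.048). These genes are named after their values were seen. Without HET anti-PD1 2, Zfp341 passed for anti-PD1 against IgG in HET hosts (adjusted p = 0.021).

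In the 10 middle libraries each gene was fitted with a slope on the S100 mean. The same values had placed these libraries in the middle, so the slopes are given as a description. With limma, 0 of 15000 genes (0%) passed an adjusted p of 0.05, and 1496 (9.97%) had an unadjusted p under 0.05, which was 846 without WT IgG 2 and 2335 without WT anti-PD1 3. The ranking had limited the S100 mean to -0.13 to 2.38 in these libraries, so nothing is read from these counts. Of the receptors, 9 of 12 had a slope above 0, with a median of 0.34 log2 units for each unit of the S100 mean. Il1r2 had a slope of 0.59 ± 0.24 (SE), Trem1 one of 0.62 ± 0.27 and Ltb4r1 one of 0.66 ± 0.30; with the keratinocyte mean as a covariate these were 0.43, 0.37 and 0.26. All 9 granule genes had a slope above 0 (median 0.54). The keratinocyte genes had a median of 0.94, with 19 of 19 above 0, and the wound epidermis genes 1.53, with 7 of 8, while over all genes the median was 0.00. Among these libraries the keratinocyte mean was above 0 in HET combination 3 alone.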

How the data were processed

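RNA sequencing of 30 tumor libraries gave 1 table of 18975 genes. Its values are log2 CPM deposited by the authors; the submitters' processing notes name STAR, edgeR and mm10, and versions, strand and annotation are not given in the sources used here. Whole reads were recovered for 100% of the values (tolerance 0.01 reads). Coordinates and symbols are from GENCODE vM21 (18837 identifiers matched). The filter kept 15002 genes that exceeded 0 on the log2 scale in 3 or more libraries, and S100a8 and S100a9 were left out, which gave 15000. A gene could pass it through the libraries of 1 end alone.

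The 2 ends were described by the log2 difference of means and by overlap, with no test; a gene counts as apart when all libraries of 1 end lie above all of the other and the means differ by at least 1. Errors of these differences are standard errors over 10 and 10 libraries. Labelled groups (8 means, all 30 libraries) were tested, and slopes in the 10 middle libraries fitted, with limma 3.58.1 in R 4.3.3 (moderated test, intensity trend, Benjamini-Hochberg adjusted p under 0.05), tested on simulated data; other steps used Python 3.11.15. Intervals and floors (3 reads over a group) cover counting error only. Alternatives changed the filter, pseudocount, ranking, number of libraries and covariates. The members and the 24 gene lists were chosen with earlier results of these data known. The rule for named genes takes the 15 largest differences higher and the 10 lower among genes apart, all measured neutrophil receptor and granule genes, 3 genes of each other list and the 10 genes most like the S100 mean; further list members and apart genes in the text were chosen after their values were seen. Some genes are not reported here.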

Additional observations from a re-analysis of the deposited data

Results flagged for a closer look

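The keratinocyte mean of WT IgG 1 was 3.54, while the next of the 5 WT IgG libraries was at -0.76. The keratinocyte mean of WT anti-PD1 1 was 0.90, while the next of the 4 WT anti-PD1 libraries was at -2.20. Each is farther from the rest of its group than Dixon's 95% limit allows. In 21 such checks (of the receptor, granule and keratinocyte means) these 2 passed, and chance alone passes about 1 in 20. Both libraries are S100-rich, and WT IgG 1 has the lowest receptor mean of the S100-rich end.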

How the results depend on the processing

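With 1 of the 20 libraries left out, which cannot make separate ends overlap, the count of genes apart and higher, 20, lay between 20 and 81 (81 without WT IgG 4), and the count lower, 1, between 1 and 7 (7 without WT IgG 5). The count higher was 6 when genes had to exceed 1 in 10 or more libraries, 120 with 5 against 5 libraries, 33 with the receptor ranking, 0 after a fit on the keratinocyte mean, 76 within WT, 431 within HET and 1 in the 7 against 7 libraries low in keratinocyte genes. The count lower was 3 with 8 against 8 libraries, 27 with 5 against 5, 0 with the receptor ranking, 0 after the keratinocyte fit, 63 within WT and 75 within HET. Fewer libraries an end make a gene apart more easily; for the other settings the cause was not tested. The receptor median, 1.52, was 0.68 with a pseudocount of 1 CPM and 1.30 to 1.69 with 1 library left out. Of the other lists, 12 had a median of at least 1 (11 to 13 with 1 library left out), against 7 with the harder filter, 5 after the keratinocyte fit, 4 with the pseudocount and 4 in the 7 against 7 libraries. Of the libraries, 60% stayed at their end after the keratinocyte fit.

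Among the lists and the genes named by the rule with a difference of at least 1, signs changed in 3 settings, and the cause was not tested; smaller differences, such as that of the red blood cell list, changed sign in these and other settings. After the keratinocyte fit these were macrophage (-0.028), T and NK cell (-0.50), mast cell (-0.11), muscle (-1.47) and adipocyte lists (-0.31), and Mcpt4 (-0.25), Dsp (-0.15), Tnnc2 (-1.66), Tpsb2 (-0.39), Nkg7 (-0.61), Psmb8 (-0.93), Mylpf (-0.20) and Ighm (-0.24). In the 7 against 7 libraries they were macrophage (-0.067), T and NK cell (-0.33), mast cell (-0.56), keratinocyte (-0.44), muscle (-1.77) and adipocyte lists (-0.43), and Krt14 (-0.44), Dmkn (-0.059), Cfd (-0.16), Mcpt4 (-0.77), Dsp (-0.47), Tnnc2 (-1.81), Tpsb2 (-1.0), Lcn2 (-0.0080), Wfdc21 (-0.023), Nkg7 (-0.28), Psmb8 (-1.04), Mylpf (-0.39) and Ighm (-0.14). Within L5 they were T and NK cell (-0.10) and adipocyte lists (-0.083), Psmb8 (-0.11) and Ighm (-0.19).

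In the labelled comparisons limma called 0 genes, and with 1 library left out 0 to 1 for HET anti-CD40 and for HET anti-PD1, and 0 to 6 for the HET combination, each against HET IgG. With the replicate number as a replicate block it called 0 in all 10 comparisons (87 to 1999 with an unadjusted p under 0.05). Of 34 pairs with the same number, 12 had a correlation of deviations over 0.1, and the correlations ran from -0.79 to 0.79. Pairs with different numbers were not compared, so these values cannot decide whether the numbers pair the libraries. Groups of 3 to 5 libraries, and neutrophil genes with few reads (16 of Cxcr2 over the S100-poor libraries), limit what could be detected. The settings with the keratinocyte limit and within L numbers were chosen after seeing the data.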
